A study of Mus musculus with 42 samples.

Results

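The ribosomal protein genes were 87 of the 20807 autosomal protein-coding genes of the mouse annotation (GENCODE vM21 on mm10). They were taken by symbol, as every protein-coding autosomal gene whose name starts with Rpl or Rps and a digit, or with Rplp, leaving out the Rps6k kinases. By name, 43 encode proteins of the 60S subunit, 29 encode proteins of the 40S subunit and 15 are copies, paralogs or genes with another name, such as Rpl10l, Rps27rt or the Rps19-binding protein gene Rps19bp1. Joining members that lie within 1 Mb of the next left 78 separate loci, spread over all 19 autosomes.

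Ribosomal proteins assemble with ribosomal RNA into the 40S subunit, which decodes mRNA, and the 60S subunit, which forms the peptide bond. Their genes are short, transcribed in nearly every cell and generally regarded as housekeeping genes, and in vertebrates their mRNAs typically begin with a stretch of pyrimidines that links their translation to nutrient signaling. Lamina-associated domains (LADs) are long chromatin segments that contact the nuclear lamina, the meshwork of A- and B-type lamins under the inner nuclear membrane. They are known to be poor in genes and mostly repressed, and distances to them are given here along the chromosome, not in the nucleus.

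LADs had been mapped by chromatin immunoprecipitation and sequencing of lamin B1 (LMNB1) in liver pieces of wild-type C57Bl/6 mice kept in 12 h light and 12 h dark. Mice of the circadian time (CT) groups had gone without chow for 24 h and were refed at will from CT0, and livers were taken every 6 h from CT0 to CT30, with 2 mice per time point in the libraries used here. The 2 non-synchronized (NS) mice had been sacrificed at noon on the day before food was withdrawn, and no unfasted group followed the same time course. The mice are called female in some label fields and male in others. Whole liver pieces hold hepatocytes and other cells together, and LAD calls carry no marker with which the tissue label could be checked.

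The promoters of 4 members are shown because these genes mark the extremes of position described below. Rpl10l lay in a LAD in most libraries, Rpl35 lay close to the same LAD border in all, and Rplp2 and Rpl14 were among the 5 members farthest from any LAD. Each line runs 5′ to 3′ from 80 bases before to 20 bases after the RefSeq start (GRCm38.p6) on the strand of the gene, and capitals mark the longest run of C or T within 50 bases of the start where it reaches 8 bases.
Rpl10l (chr12:66284382-66284481, minus strand): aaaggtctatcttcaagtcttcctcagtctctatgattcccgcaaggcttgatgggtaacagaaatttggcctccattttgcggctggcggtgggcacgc
Rpl35 (chr2:39005112-39005211, minus strand): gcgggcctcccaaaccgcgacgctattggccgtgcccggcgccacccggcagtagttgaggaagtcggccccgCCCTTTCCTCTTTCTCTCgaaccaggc
Rplp2 (chr7:141447571-141447670, plus strand): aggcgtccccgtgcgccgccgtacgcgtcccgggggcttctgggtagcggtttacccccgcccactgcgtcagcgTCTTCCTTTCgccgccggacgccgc
Rpl14 (chr9:120571437-120571536, plus strand): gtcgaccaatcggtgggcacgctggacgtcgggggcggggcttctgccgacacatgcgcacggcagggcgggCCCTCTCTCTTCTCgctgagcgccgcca

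The run reached 18 bases in Rpl35, 14 bases in Rpl14 and 10 bases in Rplp2, whereas the longest run of C or T within 50 bases of the Rpl10l start was 5 bases, with one of 8 bases farther upstream in the line shown. A RefSeq promoter was found for 61 of the 87 members. A run of at least 8 bases of C or T on the sense strand, within 50 bases on either side of the start, occurred in 48 of these 61 promoters (78.7%) and in 34.4% of the 15625 promoters of other genes. It was present in 83.9% of 31 promoters of 60S genes, 81.0% of 21 promoters of 40S genes and 55.6% of 9 promoters of copies. The median GC content of 300 bases was 58.3% in members and 57.3% in other genes, and the median ratio of observed to expected CpG was 0.877 and 0.613. The Rpl10l promoter had 52.0% GC and a CpG ratio of 0.643. Among the other genes, 45.7% of the promoters of those in a LAD in more than 7 libraries held such a run, and 32.8% of those of genes never in a LAD. These shares describe letters in a window and were not tested.

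The libraries differed in how much they called, which bears on every distance below. The number of autosomal LADs ranged from 85 in NS replicate 1 to 325 in CT18 replicate 2, and their coverage from 333 to 652 Mb. The LAD starts of a library lie on a regular grid, whose step ranged from 4 to 61 kb. The files give borders alone, so read depth is unknown and the precision comes from the 2 mice of a time point.

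A gene was ascribed to a LAD when its transcription start site (TSS) lay in it. In a single library, 0 to 2 of the 87 ribosomal protein genes were in a LAD. Their share was 0% in NS replicate 1 and CT30 replicate 1, 2.30% in replicate 1 of CT6, CT12 and CT18, and 1.15%, a single gene, in the other 9 libraries. The share of all autosomal protein-coding genes in a LAD was 4.18% and 8.28% in the NS mice, 5.54% and 8.62% in the CT0 mice, 7.30% and 10.2% in the CT6 mice and 8.51% and 9.85% in the CT12 mice (replicate 1 and 2). In the CT18 mice it was 9.79% and 10.8%, in the CT24 mice 9.48% and 8.20% and in the CT30 mice 6.31% and 5.79%. All 14 of these shares were above that of the ribosomal protein genes. The mean share was 1.23% ± 0.708 (SD over 14 libraries), against 8.09% ± 1.99 of the other autosomal protein-coding genes. The difference was −6.86 percentage points ± 1.79, ranged from −9.70 to −4.19, and had the same sign in 14 of 14 libraries. It was −3.68 points when olfactory, vomeronasal and trace amine receptor genes were left out of the other genes, and the mean share of members was 0.198% without the 15 copies and other names. Gene positions are the same in every library, so the libraries are no replicates of the gene list and the difference was given no test.

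**Figure D1:**
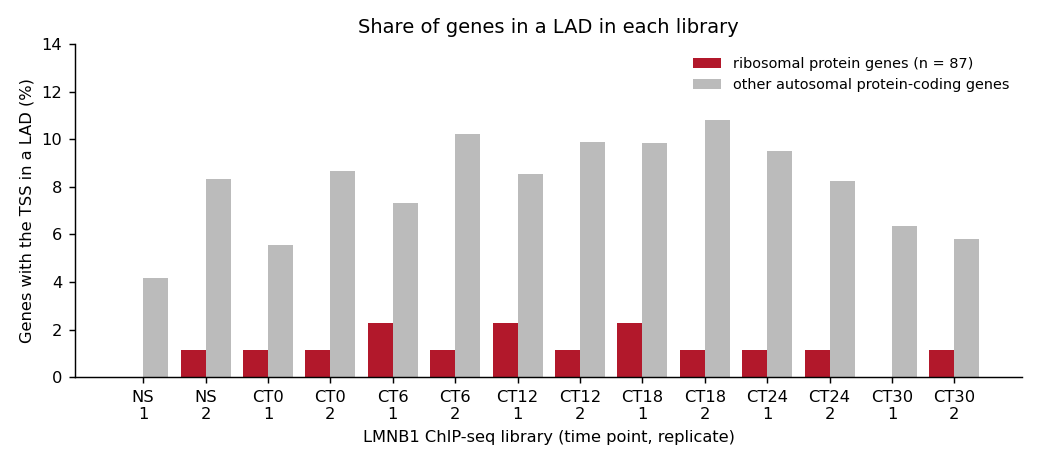
Share of genes with the TSS in a LAD (%) in each of 14 LMNB1 ChIP-seq libraries, for the 87 ribosomal protein genes (red) and all other autosomal protein-coding genes (grey). The red bars stand at 0 to 2.30% and the grey bars at 4.19 to 10.8%.

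Over all 14 libraries, 3 of 87 members (3.45%) were in a LAD at least once, where the share among all autosomal protein-coding genes was 17.1%. None of the 43 genes of the 60S subunit, 1 of the 29 genes of the 40S subunit and 2 of the 15 copies were among them. A single member was in a LAD in more than 7 libraries (1.15% against 7.48% of all genes) and 0 members were in a LAD in all 14 (0.875% of all genes). The 3 genes were Rpl10l, Rps27a and Rpl36a-ps1. For each of them the TSS and the gene body gave the same libraries.

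Rpl10l (ENSMUSG00000060499.7, chr12:66283379-66284401, minus strand) is a single-exon copy of the X-linked Rpl10, known from male germ cells. It was in a LAD in 12 of 14 libraries, that is in both mice of CT0, CT6, CT12, CT18 and CT24, in NS replicate 2 and in CT30 replicate 2. In NS replicate 1 it lay 1.81 Mb from the nearest LAD and in CT30 replicate 1 it lay 3.97 Mb away, so that the mice of NS and of CT30 disagreed. The LAD that held the gene in CT6 replicate 2 ran from 59367001 to 69091000 on chromosome 12, over 9.72 Mb with the TSS of 12 protein-coding genes, 1.23 per Mb. In CT0 replicate 1 a shorter LAD of 3.71 Mb, from 65424001 to 69137000, held only Rpl10l and Mdga2, a cell adhesion gene. No other protein-coding gene had its TSS within 500 kb of that of Rpl10l, and Mdga2, with its TSS 938 kb away, was in a LAD in 12 libraries as well. The coding sequence of Rpl10l shared 84.8% of 645 bases with that of Rpl10. The autosomal copy Rpl10-ps3, whose coding sequence was identical to that of Rpl10 (100%), lay at a median of 10.3 Mb and was never in a LAD.

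Rps27a (ENSMUSG00000020460.15, chr11:29545846-29548109, minus strand) encodes ubiquitin fused to a protein of the 40S subunit, and was the only subunit gene with introns found in a LAD. It was in a LAD in replicate 1 of CT12 and replicate 1 of CT18, while the second mouse lay at 0.936 Mb and 1.19 Mb, so no time point had it in a LAD in both mice. The LAD of CT12 replicate 1 ran from 24790001 to 29600000 (4.81 Mb) and that of CT18 replicate 1 from 24434001 to 31578000 (7.14 Mb). In CT6 replicate 1 the LAD stopped 40.8 kb short of the gene, close to the grid step of 35 kb of that library. The remaining 11 libraries placed it between 0.546 Mb (CT0 replicate 2) and 6.62 Mb (NS replicate 1), with 6.56 Mb in CT30 replicate 2. The neighbors Mtif2, a mitochondrial translation factor, and Clhc1 were in a LAD in 2 libraries as well, and Ccdc85a, 964 kb away, in 8.

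Rpl36a-ps1 (ENSMUSG00000060377.4, chr14:98993870-98994318, minus strand) is a single-exon copy of the X-linked Rpl36a that the annotation lists as protein-coding, with 97.8% of 321 coding bases shared. It was in a LAD in CT6 replicate 1 alone, in a domain from 88550001 to 99505000 (11.0 Mb), and without that library 2 members in all were in a LAD at least once. In CT6 replicate 2 it lay at 0.357 Mb. NS replicate 1 placed it at 7.02 Mb and the CT30 mice at 6.24 and 6.63 Mb, and the other 9 libraries placed it between 0.244 and 1.06 Mb. The distance at CT30 exceeded that at every other CT in both mice, yet the exact permutation test over the 6 CTs gave p = 0.0688 (adjusted p = 0.813).

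Beyond these genes the members spread over a wide range of distances, taken as the gap between a gene and its closest LAD on the same chromosome, or 0 on overlap. The median distance over 14 libraries was under 1 Mb for 16 members, between 1 and 10 Mb for 53 and over 10 Mb for 18. The quartiles of this median were 2.25, 4.48 and 8.23 Mb in members, against 1.30, 3.68 and 8.03 Mb in other genes. In 66 members (75.9%) the gene was farther than 1 Mb from a LAD in all 14 libraries, where 58.7% of all genes were. Farther than 5 Mb in all libraries were 20 members (23.0%, against 18.6% of all genes) and farther than 10 Mb were 5 (5.75%, against 5.89%). Within 1 Mb in all libraries were 2 members, among them Rpl35 (2.30%, against 2.89%). The share of members was thus above the background at 1 Mb and close to it at 10 Mb.

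**Figure D2:**
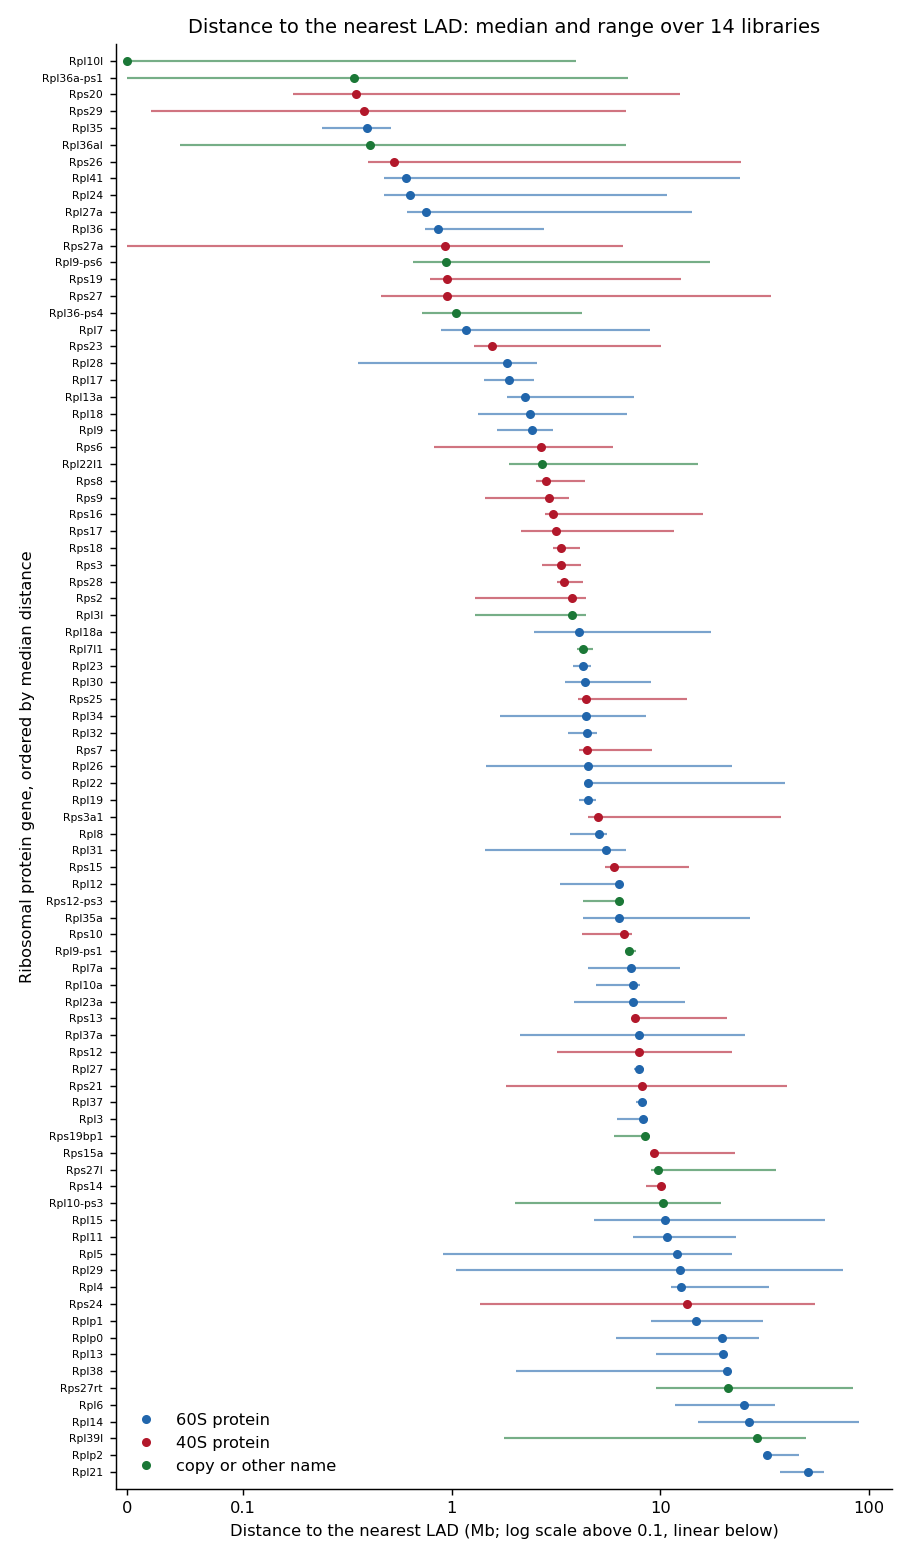
Distance to the nearest LAD (Mb) of 85 of the 87 ribosomal protein genes, with the median (point) and the lowest to highest value (line) over 14 libraries, ordered by median and colored by subunit. Only the lines of Rpl10l, Rpl36a-ps1 and Rps27a reach 0, and the medians run up to 51.0 Mb in Rpl21.

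**Figure D3:**
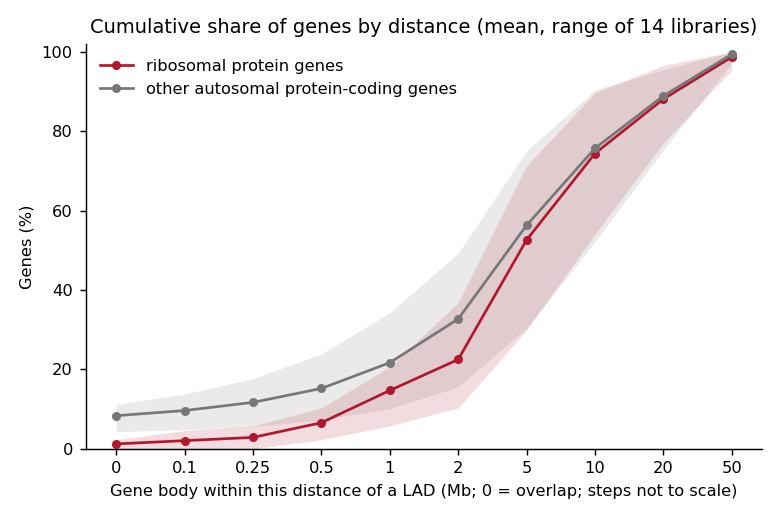
Share of genes (%) whose body lies within a given distance of a LAD (Mb, unevenly spaced steps), as the mean (line) and range (band) of 14 libraries, for ribosomal protein genes (red) and other autosomal protein-coding genes (grey). At 0.5 Mb the means are 6.57% and 15.2%, and at 10 Mb they are 74.4% and 75.7%.

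Within 0.1 Mb of a LAD lay 2.05% ± 1.44 of members and 9.64% ± 2.53 of other genes (SD over 14 libraries), and within 1 Mb 14.7% ± 5.32 and 21.7% ± 6.63. Within 20 Mb the shares were 88.1% ± 5.91 and 88.9% ± 6.34.

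Rpl35, a 60S protein at the exit of the peptide tunnel, had the steadiest position of the near members. It lay between 0.240 Mb (CT30 replicate 1) and 0.514 Mb (CT12 replicate 2) from a LAD on its right in all 14 libraries, with a median of 0.395 Mb. That LAD started between 39246001 and 39520001 on chromosome 2 and held 0 to 5 protein-coding genes, at most 0.560 per Mb.

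The other members with the smallest medians, among those never in a LAD, were less steady. Rps20, a 40S protein gene, had a median of 0.350 Mb, lay between 0.174 and 0.378 Mb from a LAD in 8 libraries and between 8.35 and 12.5 Mb in the other 6. These 6 included both CT30 mice but replicate 1 alone of NS, CT0, CT12 and CT18. Rps29, a small 40S protein, and Rpl36al, a paralog of the X-linked Rpl36a, have their TSS 24.9 kb apart on chromosome 12 and shared a LAD border on the left. Rps29 came within 20.7 kb of it in CT0 replicate 1 and lay at 6.85 Mb in CT30 replicate 1, and its median was 0.382 Mb. The median of Rpl36al was 0.407 Mb. In both genes the CT30 mice lay far apart, with Rps29 at 6.85 and 0.0657 Mb.

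The farthest members were Rpl21, Rplp2, Rpl39l, Rpl14 and Rpl6. Rpl21, a 60S protein gene near the end of chromosome 5, had a median distance of 51.0 Mb and lay between 37.4 and 61.0 Mb. Rplp2, an acidic protein of the P stalk that engages translation factors, had a median of 32.7 Mb and lay between 32.5 and 46.2 Mb. The 60S protein genes Rpl14 and Rpl6 had medians of 26.7 and 25.3 Mb, with ranges of 15.2 to 89.7 Mb and 11.8 to 35.4 Mb. Rpl39l, a paralog of the X-linked Rpl39, had a median of 29.1 Mb but lay at 1.79 Mb in CT6 replicate 2, 1.86 Mb in CT18 replicate 2 and 1.99 Mb in CT0 replicate 1. Distances of this size turned on single LADs. In Rpl21 the nearest domain was a LAD of 0.475 to 0.580 Mb in the 3 libraries with 37.4 or 37.5 Mb.

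Members with well-known roles covered the whole scale. In the 60S subunit, Rplp0, the base of the P stalk, had a median of 19.7 Mb (6.16 to 29.7 Mb), and Rpl3, close to the peptidyl transferase center, had a median of 8.26 Mb (6.20 to 8.73 Mb). Rpl5 and Rpl11, which join 5S ribosomal RNA and bind MDM2 when assembly fails, had medians of 12.0 Mb (0.911 to 22.1 Mb) and 10.8 Mb (7.38 to 23.2 Mb). Rpl23a, at the tunnel exit, had a median of 7.42 Mb (3.85 to 13.1 Mb) and Rpl10a, of the L1 stalk, one of 7.39 Mb (4.90 to 8.02 Mb). In the 40S subunit, Rps3, at the mRNA entry, had a median of 3.34 Mb (2.70 to 4.18 Mb), and Rps6, the substrate of S6 kinase, one of 2.68 Mb (0.823 to 5.97 Mb). Rps14, of the 40S platform, had a median of 10.1 Mb (8.60 to 10.5 Mb). Rps19, needed for 40S maturation and mutated in Diamond-Blackfan anemia, had a median of 0.946 Mb and lay between 0.789 and 1.52 Mb in 13 libraries, with 12.6 Mb in CT0 replicate 1.

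The subunits differed in their medians. The median over the 43 genes of the 60S subunit was larger than that over the 29 genes of the 40S subunit in 14 of 14 libraries, with a mean of 6.33 Mb ± 2.31 against 3.89 Mb ± 1.15 (SD over 14 libraries). Of the 60S genes 13 had a median over 10 Mb, and of the 40S genes 2. Rpl5, Rplp0, Rpl6 and Rpl21 on chromosome 5 were among the 13 and had the same nearest LAD in every library. Rpl14 and others of the 13 lie on chromosome 9, which held 8 members with a median distance of 12.5 Mb. Under 1 Mb were 5 of the 60S and 7 of the 40S genes. The upper quartile of the medians was 11.4 Mb in 60S genes and 5.99 Mb in 40S genes. In autosomal protein-coding genes outside the members it was 8.03 Mb. The 15 copies and other names had a mean of 5.00 Mb ± 1.52. Chromosome 7 held 14 members, with a median distance of 2.66 Mb, and chromosome 5 held 5, with a median of 19.7 Mb. Several members are close neighbors and count as 1 position, such as Rps2 and Rpl3l (TSS 9.70 kb apart, medians of 3.78 and 3.79 Mb). Gene positions are the same in every library, so the 14 libraries do not replicate the difference between subunits. The subunits were compared as a description with no test.

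Copies often lay at another distance than the gene they are named for. Rps27rt, identical in coding sequence to Rps27 (100% of 255 bases), had a median of 21.1 Mb and Rps27 one of 0.955 Mb. Rpl9-ps6 (99.8% identity) lay at 0.936 Mb and Rpl9 at 2.44 Mb, while Rps12-ps3 (100% identity) lay at 6.35 Mb and Rps12 at 7.95 Mb. Of the 7 members with 1 exon, Rpl10l and Rpl36a-ps1 were in a LAD at least once, and of the 80 members with introns Rps27a was. How reads were assigned to such copies was not tested.

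The members were shorter than other genes and differed little from them in how many genes lie around. The median gene length was 3.23 kb in members and 17.8 kb in other genes, and the median number of exons was 5 and 7. Within 500 kb on either side of the TSS lay the start of a median of 19 other protein-coding genes around members (quartiles 9 and 31). Around other genes the median was 16 (quartiles 8 and 28), and around the 15 copies and other names it was 9. Around the 3 members found in LADs lay 0 (Rpl10l), 5 (Rpl36a-ps1) and 10 (Rps27a) such genes. Over the 12 CT libraries, the spread from the lowest to the highest log10(distance + 10 kb) had a median of 0.531 in members and 0.798 in other genes. A gene that enters a LAD falls to a distance of 0, and the 3 members found in LADs had spreads of 2.60 to 2.82. In a LAD at least once were 3.45% of members and 17.2% of other genes, and the part of this in the spread was not tested.

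The median distance of the members in a library had a mean of 5.27 Mb ± 1.60 over 14 libraries, against 4.46 Mb ± 2.10 for other genes. The ratio of both medians was 1.26 ± 0.219 and ranged from 0.921 in NS replicate 1 to 1.71 in CT18 replicate 2. It was above 1 in 13 of 14 libraries, but in CT0 replicate 1 it was 1.00 after rounding (7.41 against 7.38 Mb). Gene positions are the same in every library, so the libraries do not replicate the ratio. The members' median was 6.52 Mb ± 2.94 in NS mice, and over the time course it was 5.87 Mb ± 2.19 in CT0 mice, 5.39 Mb ± 2.28 in CT6 mice and 4.20 Mb ± 0.319 in CT12 mice (SD, n = 2 each). The CT18 mice had 4.02 Mb ± 0.712, the CT24 mice 4.39 Mb ± 0.393 and the CT30 mice 6.51 Mb ± 0.329. The replicates lay far apart in NS, CT0 and CT6 mice, with 8.60 and 4.44 Mb in the NS mice, 7.41 and 4.32 Mb at CT0 and 7.00 and 3.79 Mb at CT6. At CT30 both mice, with 6.28 and 6.75 Mb, lay above both mice of CT12, CT18 and CT24, which ranged from 3.52 to 4.66 Mb.

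The 5 libraries with the largest medians were also the 5 with the fewest LADs. They had 85 to 134 autosomal LADs, grid steps of 31 to 61 kb and member medians of 6.28 to 8.60 Mb. The other 9 libraries had 159 to 325 LADs, steps of 4 to 19 kb and medians of 3.52 to 4.66 Mb. Both CT30 mice and replicate 1 of NS, CT0 and CT6 made up the 5. The part of LAD number and grid step in the distances was not tested.

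**Figure D4:**
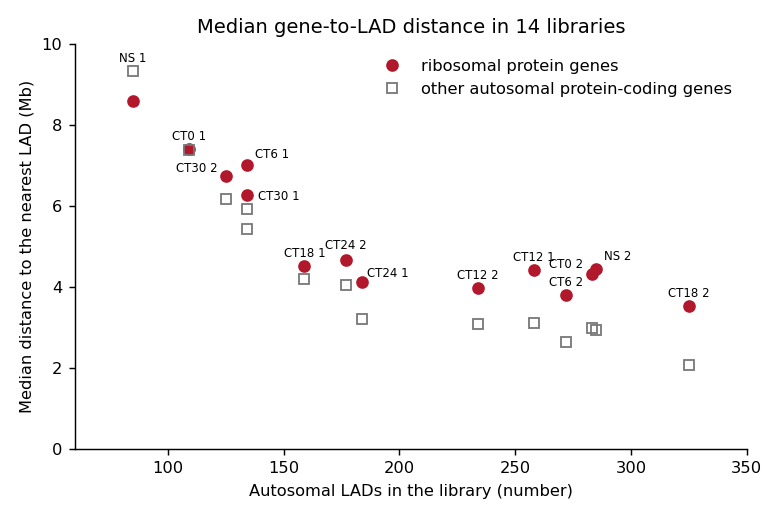
Median distance to the nearest LAD (Mb) against the number of autosomal LADs in each of 14 libraries, for the 87 ribosomal protein genes (red circles) and other autosomal protein-coding genes (grey squares); labels give time point and replicate. The 5 libraries with 85 to 134 LADs have member medians of 6.28 to 8.60 Mb, and the other 9 lie at 3.52 to 4.66 Mb.

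Whether the distance of a gene differed between the 6 CTs was tested per gene on log10(distance + 10 kb), by an exact permutation test of the F ratio over all 10395 divisions of the 12 CT libraries into pairs, adjusted by Benjamini-Hochberg over the 20370 genes whose distance varied. No ribosomal protein gene passed an adjusted p of 0.05 (0 of 87), and neither did any other gene (0%). The smallest p the test can give is 9.62e-05, so at least 40 genes would have to pass together for any to pass. The smallest p found by this exact permutation test was 1.92e-04, in 2 genes, and the smallest adjusted p of any gene was 0.265. The count of 0 does not show that distances were stable. At an unadjusted p under 0.05 there were 4 members (4.60%), below the 5.45% of all genes tested.

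Among these 4 were Rps23, Rps9 and Rpl28, and none of the 4 passed the adjusted threshold. Rps23, a 40S protein of the decoding center, had an F ratio of 10.3 (exact permutation p = 0.0112, adjusted p = 0.789). It lay at 2.11 and 2.10 Mb at CT30 and between 1.28 and 1.77 Mb in the other 10 CT libraries. The CT30 mice stood above all others of the time course, whereas NS replicate 1 lay at 10.1 Mb. Rps9, a 40S protein, and Rpl28, a 60S protein, lie on chromosome 7 with their TSS 1089 kb apart and showed the same split of libraries. Both CT12 mice had Rpl28 at 0.585 and 0.355 Mb, and both mice of CT6, CT24 and CT30 had it between 2.20 and 2.56 Mb, while the CT0 and CT18 mice were split. Their p was 0.0482 for Rps9 and 0.0494 for Rpl28 (exact permutation test, adjusted p = 0.813 for both).

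**Figure D5:**
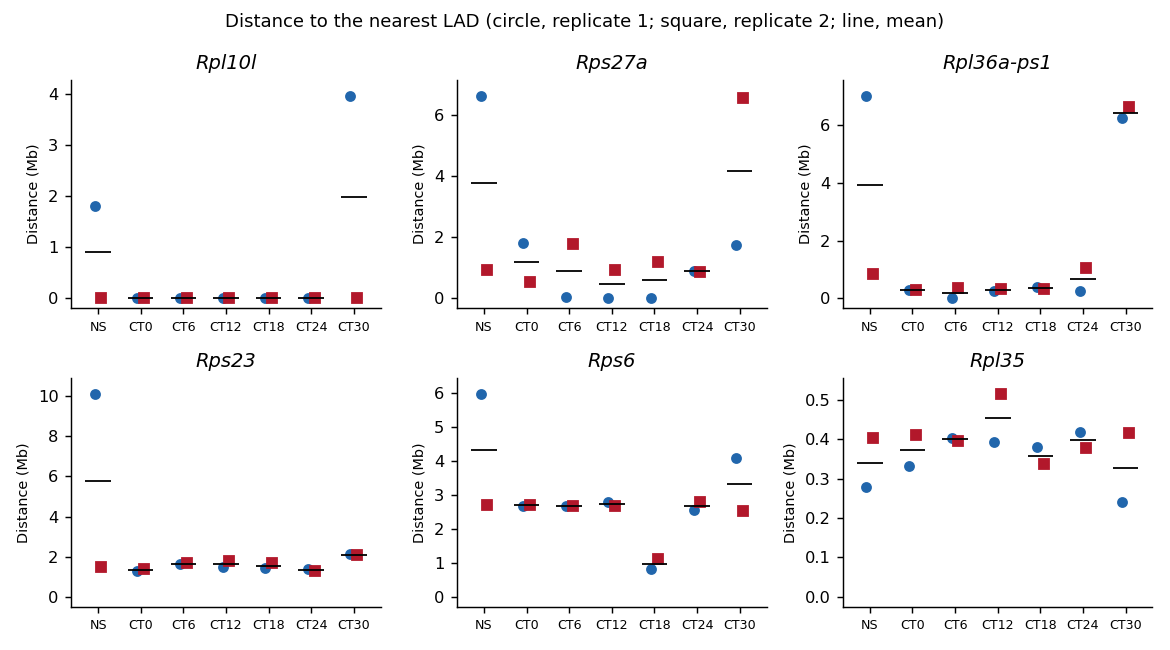
Distance to the nearest LAD (Mb) of the 3 members found in LADs (Rpl10l, Rps27a, Rpl36a-ps1), Rps23 and Rps6 (exact permutation p over the CTs of 0.0112 and 0.0902, neither past the adjusted threshold), and the steadily near Rpl35, by time point, with replicate 1 (circle), replicate 2 (square) and their mean (line). Each panel has its own vertical axis, and Rpl35 stays between 0.240 and 0.514 Mb in all 14 libraries.

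Rps6 came nearest to a LAD at CT18, at 0.823 and 1.10 Mb, where the other 10 CT libraries placed it between 2.52 and 4.10 Mb. Its F ratio was 14.5, with an exact permutation p = 0.0902 (adjusted p = 0.864).

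For single steps of the time course, genes whose 2 groups of mice did not overlap were counted. With 2 mice against 2 the smallest two-sided exact permutation p is 0.33, so these counts carry no test. From NS to CT0, which brackets the fast, 10 members (11.5%) were farther in both mice, where 9.06% of all genes were, and 12 (13.8%) were nearer, against 11.1%. In replicate 1 alone 45 members were farther and 42 nearer, and in replicate 2 alone 30 were farther and 54 nearer. The farther genes included Rplp0, Rpl5, Rpl6 and Rpl21, and the nearer genes Rps3, Rps6, Rps23 and Rpl36a-ps1. In each NS and CT0 library the same LAD of chromosome 5 was nearest to Rplp0, Rpl5, Rpl6 and Rpl21. These farther genes are thus not separate changes. From CT0 to CT12, 16 members (18.4%) were nearer in both mice, against 19.5% of all genes, and 6 (6.90%) were farther, against 9.78%. From CT12 to CT24, 12 members (13.8%) were farther, against 16.7%, and 8 (9.20%) were nearer, against 14.9%. With LADs of at least 1 Mb alone, 10 members were farther and 16 nearer in this step, so that the larger count was the nearer one. In replicate 1 alone 31 were farther and 55 nearer, and in replicate 2 alone 55 were farther and 31 nearer. For counts in 1 replicate alone or with LADs of at least 1 Mb, the share of all genes was not computed. Those counts therefore show no trait of the members.

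From CT24 to CT30, a step compared after the values had been seen, 35 members (40.2%) were farther from a LAD in both mice and 6 (6.90%) were nearer, where the shares of all genes were 36.9% and 10.3%. The median change of the group mean was 0.771 Mb in members and 0.689 Mb in all genes. Rps20, Rps27a, Rpl36a-ps1 and Rps23 were among the farther genes. Neighboring steps share the libraries of a time point and are not independent. The CT30 libraries had 134 and 125 autosomal LADs and the CT24 libraries 184 and 177, and the part of that difference was not tested.

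Other genes of protein synthesis were set beside the members. The ribosomal protein genes with other symbols Rpsa, Rack1 and Fau were in no LAD in any library. Of 34 translation factor genes 1 was in a LAD at least once (2.94%), Eif3e, a subunit of initiation factor eIF3, in 3 libraries. Of 30 ribosome biogenesis genes 1 was (3.33%), Nop10, of the pseudouridylation complex, in a single library. Of 78 mitochondrial ribosomal protein genes 6 were (7.69%), among them Mrps30 in 12 libraries, as many as Rpl10l. All these shares were below the 17.1% of all autosomal protein-coding genes. The mean of the median distances was 6.41 Mb ± 2.20 for translation factors, 5.29 Mb ± 1.24 for ribosome biogenesis and 4.88 Mb ± 2.12 for mitochondrial ribosomal proteins (SD over 14 libraries).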

How the data were processed

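LMNB1 ChIP-seq libraries of liver from 14 mice were used, 2 NS mice and 2 at each of 6 CTs. The inputs and RNA-seq samples were not analysed here. The authors had removed duplicates with Picard, mapped reads to mm10 with Bowtie, down-sampled ChIP and input reads to equal depth on every chromosome and called LADs per mouse with Enriched Domain Detector. The deposited values are LAD start and end positions in base pairs, with no score, signal or depth.

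Genes were those of GENCODE vM21 (GRCm38.p6). LADs were used as deposited. Distances, shares and exact tests were computed in Python 3.11.15 with NumPy 2.4.6 and pandas 2.3.3, and coding sequences were aligned with Biopython 1.88, taking the pair of transcripts with the highest identity. A pseudocount of 10 kb was added before log10. The grid step is the largest number of kb dividing the LAD starts on whole kb; 82 of 2845 starts were not. The tests were checked on simulated data. The authors ascribe genes by TSS, but measure distances on intersects of replicates with regard to strand, unlike here.

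Members found in a LAD, the 5 nearest and 5 farthest of the others, the 5 with the largest range, and 10 genes by role were named, except for genes not reported here. Rps23, Rps9 and Rpl28 were named after their values were seen, as were genes outside the members. Members and lists were chosen with earlier results of these data known. Alternatives were a LAD minimum of 1 Mb, LADs under 100 kb apart merged, body overlap, distance from the TSS, intersect or union of replicates, members without copies, other genes without chemoreceptors, other pseudocounts, a replicate block and libraries left out.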

Additional observations from a re-analysis of the deposited data

How the results depend on the processing

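Of 185 values under an alternative, 162 stayed within the spread between replicates or, for counts, within 1.5 times the value reported, and 23 moved further. Many of the 162 could hardly move, so their number is no measure of robustness. Leaving out 1 library changes a mean over libraries little, and merging LADs under 100 kb apart returned the values reported. The count of members called over the CTs was 0 as reported and could not fall, and the smallest adjusted p of any gene was 0.265 in the exact permutation test. The signs of the share difference and of the ratio less 1 did not reverse. The ratio of the median distances, 1.26 as reported, was 1.13 with LADs of at least 1 Mb. It was 1.18 with chemoreceptor genes left out of the other genes, and with the intersect of both mice it was below 1.13. Higher ratios came without copies and other names (1.28) and with the union of both mice (1.43). The SD of this ratio between replicates was 0.273, so a ratio near 1 still counted as within the spread. The difference in the share in LADs was −4.82 points with the intersect of both mice, −8.89 with their union and −3.68 when olfactory, vomeronasal and trace amine receptor genes (Olfr, Vmn1r, Vmn2r, Taar) were left out of the other genes. The number of members in a LAD at least once was 1 (Rpl10l) with the intersect. Without copies and other names it was 1 as well (Rps27a), with a mean share of 0.198%. Of those 43 genes of the 60S and 29 of the 40S subunit, 10 were farther and 9 nearer from NS to CT0. With copies and other names 12 were nearer, and of all genes 9.06% were farther and 11.1% nearer. With LADs of at least 1 Mb, 16 members in place of 8 were nearer at CT24 than at CT12 and 10 in place of 12 were farther, which turns the larger count from farther to nearer. The share of all genes was not computed under that setting. Leaving out 1 library at a time gave shares of 1.15 to 1.33%, differences of −7.06 to −6.64 points, 2 to 3 members in LADs, medians of 5.02 to 5.41 Mb and ratios of 1.23 to 1.29.

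With 1 mouse per group, added after the data were seen, counts are larger by construction. The shares of all genes were not computed beside them. From NS to CT0, 30 to 45 members were farther and 42 to 54 nearer, with the larger count farther in replicate 1 and nearer in replicate 2. From CT0 to CT12, 48 to 56 were nearer and 30 to 37 farther. From CT12 to CT24, 31 to 55 were farther and 31 to 55 nearer, with the larger count farther in replicate 2 and nearer in replicate 1. From CT24 to CT30, 58 to 67 were farther and 19 to 29 nearer.

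No member passed the adjusted threshold over the CTs in any setting, libraries left out included, and 2 to 6 members had an unadjusted p under 0.05. With the replicate number as a block the exact permutation test called 0 members, and 6 had an unadjusted p under 0.05. The replicate numbers did not pair the mice in all CTs: over 15 pairs of CTs the correlation of the differences between replicates ranged from −0.12 to 0.36. It exceeded 0.1 in 4, with 0.36 for CT0 and CT6 and 0.35 for CT6 and CT18. Replicate 1 had fewer autosomal LADs than replicate 2 at CT0, CT6 and CT18, and more at CT12, CT24 and CT30. A left-out library leaves a CT with 1 mouse, assumed to vary like the others, so counts called are not given for those settings. Depth is unknown, and 2 mice per time point limit each comparison.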

Other observations

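The X-linked genes Rpl10, Rpl36a, Rpl39 and Rps4x met the symbol rule but are not autosomal. LADs were called on chromosome X in 10 of 14 libraries, and none of the 4 genes was in a LAD in those. Rpl39 had the smallest median distance, 1.57 Mb, and lay between 1.16 and 110 Mb. Rpl36a, the gene that Rpl36a-ps1 and Rpl36al are named for, had a median of 13.0 Mb. Rpl10, for which Rpl10l is named, had a median of 18.6 Mb and came no nearer than 12.7 Mb.

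Among autosomal ribosomal protein genes with other symbols, Rack1, a scaffold protein of the 40S subunit, had a median of 0.594 Mb and Rpsa, a 40S protein and laminin receptor, one of 26.2 Mb.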
